A study of Rhodotorula toruloides with 18 samples.

Results

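The response of wild type Rhodotorula toruloides to cellobiose was measured against carbon starvation, in 6 of the 18 libraries of the series. The members were chosen by label alone, as 3 libraries of wild type cells on cellobiose and 3 of wild type cells without a carbon source, and all 8484 genes of the table were read in each. R. toruloides is a basidiomycete yeast that stores oil and makes carotenoids. The strain background was IFO0880, and every group carried a hygromycin resistance cassette at yku70 (yku70::HygR). Ku70 serves in end joining of DNA breaks, and its loss is used in fungi to favour targeted integration, so the strain called wild type here is itself a mutant at that locus. The labels do not give the number of independent clones of a strain. Cells grown overnight in rich glucose medium were washed and held for 8 h at 28 degrees C, pH 6.2, in constant light, in yeast nitrogen base with 1% cellobiose or with no carbon source. The labels describe biological triplicates. The series further holds 3 wild type libraries on 1% succinate and 9 libraries of a strain that also lacks cbr1 (yku70::HygR cbr1::NatR) on cellobiose, on succinate and without carbon, which were used here to read the same genes in other libraries and to estimate the spread. Neither the yku70 nor the cbr1 transcript was analysed here, since the files do not pair gene identifiers with names.

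Cellobiose is a disaccharide of glucose. Yeasts that grow on it either take it up and split it inside the cell or cleave it outside with beta-glucosidases, and the glucose then enters glycolysis. Cells without carbon depend on stored lipid, glycogen and recycled protein, and genes for the use of other carbon sources are commonly active. Carbon catabolite repression is the process by which a preferred carbon source keeps such genes off. Per its title, the series concerns a transcription factor that links carbon source use and this repression. No role is given below to any single gene, because none of the identifiers could be tied to an annotation.

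In TPM, more genes were lower than higher on cellobiose, a balance that quantile normalization turned to 1124 higher and 1085 lower. Values are TPM, the share of a transcript in a library scaled to a total of 1e+06, and a difference is one of log2(TPM + 1), which understates the change of genes at low levels. A gene was called when the adjusted p of limma, a linear model fitted across all genes and all 18 libraries, was under 0.05 and the difference was at least 1 on the log2 scale. Of 7938 genes tested, 2445 were called (30.8%), with 697 higher (8.78%) and 1748 lower (22%). The 697 raised genes had a median difference of 1.35 and the 1748 lowered genes one of -1.73, beside -0.13 over all genes tested. The balance of directions depended on scaling. Higher genes made up 28.5% of calls in TPM, 39.3% after median-ratio scaling and 50.9% after quantile normalization. The median over all genes was 0.02 and 0.16 under those scalings. Since TPM are shares, less of a transcript per cell and more of the other transcripts cannot be told apart.

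**Figure D1:**
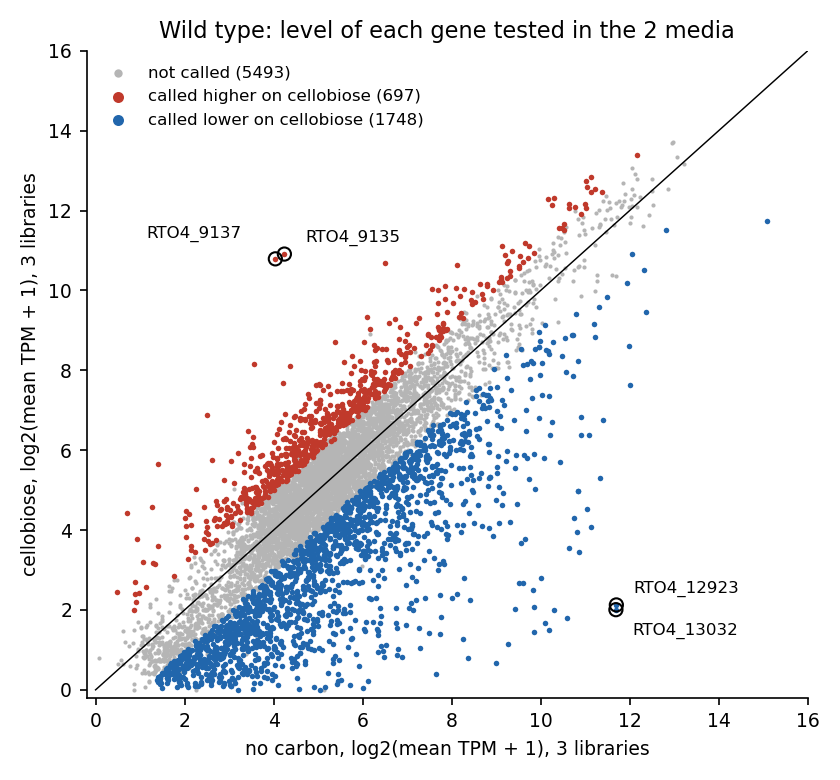
Level of each of 7938 genes in wild type cells, as log2(mean TPM + 1) over 3 libraries on cellobiose (vertical) and over 3 libraries without carbon (horizontal), with the line of equal levels. The 1748 lowered genes (blue) spread far below the line down to the floor of the cellobiose axis. Most of the 697 raised genes (red) lie in a narrow band above it, while 7 differ by a log2 of at least 4. The 4 circled genes named in the text lie farthest out.

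Among large differences most genes were lower. At a log2 difference of at least 2, 98 called genes were higher and 685 were lower. At 3 or more there were 16 higher and 288 lower, and at 4 or more 7 and 126. At 3 or more, median-ratio scaling gave 18 higher and 266 lower and quantile normalization 24 and 186. At 7 or more there were 16 lowered genes and 0 raised genes. Without a model, 206 genes (2.6%) were higher by a log2 of at least 1 in all 9 pairs of a cellobiose and a no-carbon library, and 780 (9.83%) were lower by as much. The first count was 380 without replicate 3 on cellobiose, and the second was 1594 without replicate 3 of no carbon. Fewer pairs have to agree when any library is left out, which by itself raises these counts. Without replicates 1 and 2 on cellobiose the first count was 222 and 218. Without replicates 1 and 2 of no carbon the second was 864 and 789. The cause of the larger shift without replicate 3 was not tested. The replicates of the media did not overlap for 3461 genes (43.6%). On cellobiose 1410 of them were higher (17.8%) and 2051 lower (25.8%).

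**Figure D2:**
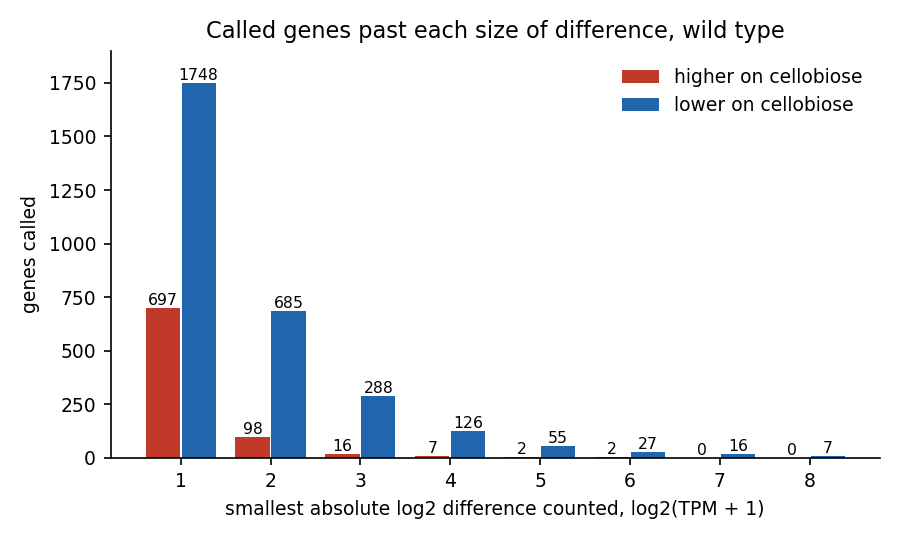
Number of genes called higher (red) and lower (blue) on cellobiose in the wild type, counting those whose log2 difference is at least the value on the horizontal axis. The bars fall from 697 to 16 for raised genes between differences of 1 and 3, and from 1748 to 288 for lowered genes.

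The lowered genes stood at low levels on cellobiose, and the raised genes were already present in starved cells. Their median level, taken over the gene means, was 6.61 TPM on cellobiose and 34.1 TPM without carbon, and 307 of the 1748 had a mean under 1 TPM on cellobiose. The raised genes had a median of 89.9 TPM on cellobiose and 29.4 TPM without carbon. The median of all tested genes was 29.8 TPM on cellobiose and 32.8 TPM without carbon. Of the raised genes, 8 had a mean under 1 TPM without carbon. At 100 TPM or more stood 327 raised genes on cellobiose and 118 without carbon. Of the lowered genes, 88 stood there on cellobiose and 470 without carbon. These libraries chose both sets, so the medium in which each set stood lower is no finding.

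Switch-like genes were nearly all of the lowered kind. There were 24 genes (0.283% of the 8484 in the table) under 1 TPM in all 3 libraries on cellobiose and at 10 TPM or more in all 3 without carbon. Their mean levels without carbon ran from 12.2 to 199 TPM, with a median of 31.9 TPM. Only 1 gene (0.0118%) showed the opposite pattern. The count of 24 was 44 without replicate 3 of no carbon and 37 without replicate 3 on cellobiose. All 25 were among the called genes. In the cbr1 deletion strain, whose libraries had no part in choosing them, 20 of the 24 were called lower on cellobiose, where lower calls made up 12.6% of all genes tested. On succinate 23 of the 24 were called lower in that strain, where lower calls made up 21.9%. Their mean levels in the deletion strain on cellobiose ran from 0.0128 to 39.6 TPM with a median of 2.33 TPM, and 4 of them stood under 1 TPM in all 3 libraries there.

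The genes of low mean level held 842 of the 1748 lowered genes. The tested genes were cut into 4 abundance classes of equal size by their mean log2 value over the 6 libraries. In the lowest class, with a median of 6.53 TPM, 842 of 1985 genes were called lower (42.4%) and 70 higher (3.53%). In the next classes up 15.5%, 13.6% and 16.6% were lower and 7.86%, 9.43% and 14.3% were higher. The lowest class had a median difference of -0.82 and the highest one of 0.17. A gene near absence in 1 medium has a low mean for that reason, so level and difference are not independent here. The count of 842 also depended on the low end of the scale, and was 396 with a pseudocount of 5 TPM and 301 after quantile normalization.

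The 100 most abundant genes on cellobiose and the 100 most abundant without carbon shared 66 genes. Of the cellobiose list 28 were called higher and 3 lower on cellobiose, and of the no-carbon list 10 were higher and 27 lower, beside 8.78% higher and 22% lower over all genes tested. The shares of the no-carbon list lay near those of all genes. The lists were chosen by level in these libraries, so these counts only describe them. The most abundant transcript without carbon held 3573, 3752 and 2851 TPM in the 3 libraries on cellobiose, against 29598, 24809 and 49199 TPM in the 3 without carbon. Its mean was thus 3392 ± 477 TPM on cellobiose and 34535 ± 12923 TPM without carbon (SD, n = 3 each), with a difference of -3.29 ± 0.53 on the log2 scale (SE, adjusted p = 5.13e-05 in limma), and it ranked 57 on cellobiose. The most abundant transcript on cellobiose held 10738, 12487 and 16919 TPM there, against 8518, 7012 and 8629 TPM without carbon. Its difference of 0.71 ± 0.39 (SE) was not called (limma adjusted p = 0.162), and it already ranked 4 without carbon. Both transcripts were picked by their level in these libraries, so their differences and ranks are not independent of that choice. The 10 leading genes of each medium shared 5 genes.

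The share of the transcript pool held by the responding genes was read in every library. The 1748 lowered genes held 5.73%, 5.88% and 5.01% of all TPM on cellobiose, against 29.2%, 29.2% and 30.4% without carbon. The 697 raised genes held 24.8%, 24.4% and 22.1% on cellobiose, against 7.41%, 8.63% and 9.69% without carbon. These libraries chose the genes, so the separation of the media is no finding. The 126 genes that fell by a log2 of at least 4 held between 0.141% and 0.149% on cellobiose and between 6.18% and 8.03% without carbon. The 55 that fell by at least 5 held between 0.0335% and 0.035% on cellobiose and between 3.27% and 5.69% without carbon.

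In the deletion strain, whose libraries entered the filter and the estimate of the spread but not the wild type difference, the pool shares of the media lay on the same side of no carbon. The lowered genes held 18.1%, 17.3% and 15.7% of TPM on cellobiose and 9.89%, 13.8% and 8.54% on succinate, against 31.3%, 30.7% and 33.8% without carbon. The raised genes held 12.6%, 12.6% and 15.3% on cellobiose and 19.8%, 18.2% and 19.4% on succinate in that strain, against 6.04%, 6.84% and 6.92% without carbon. Neither medium overlapped with no carbon for either set, nor did it with sets called from the 6 wild type libraries alone.

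**Figure D3:**
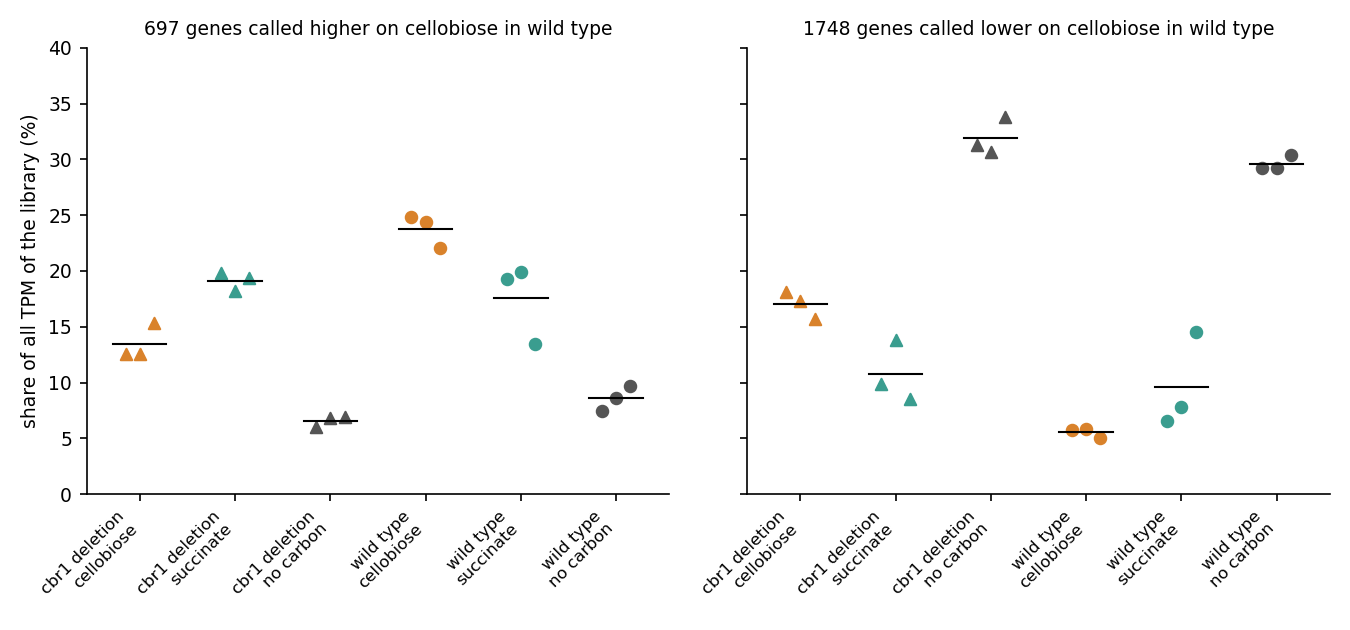
Share of all TPM of a library held by the 697 genes raised (left) and the 1748 genes lowered (right) on cellobiose in the wild type, in each of 18 libraries (points, with replicates 1 to 3 from the left; triangles for the cbr1 deletion strain and circles for the wild type; lines, means). The wild type cellobiose and no-carbon libraries chose the genes; in the deletion strain the lowered genes lie between 15.7% and 18.1% on cellobiose and between 30.7% and 33.8% without carbon.

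Gene RTO4_9137 rose most. It held 2249, 2114 and 945 TPM on cellobiose, against 22.5, 18.5 and 5.32 TPM without carbon. Every cellobiose library lay far above every starved one, with replicate 3 lowest in both media. Its mean was 1770 ± 717 TPM on cellobiose and 15.4 ± 9.0 TPM without carbon (SD, n = 3 each), and the log2 difference was 6.86 ± 0.80 (SE, adjusted p = 1.49e-06 in limma). Gene RTO4_9135 held 2061, 2110 and 1601 TPM on cellobiose, against 19.6, 24.1 and 10.1 TPM without carbon. Its log2 difference was 6.74 ± 0.69 (SE, adjusted p = 3.19e-07 in limma). The pair thus moved over a similar range, and by mean level RTO4_9137 ranked 102 on cellobiose and 6003 without carbon and RTO4_9135 ranked 93 on cellobiose and 5687 without carbon.

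The rise of both genes was seen on cellobiose and was not called on succinate. In the wild type RTO4_9137 held 7.45, 11.7 and 4.16 TPM on succinate and RTO4_9135 held 5.56, 7.94 and 3.94 TPM. Their log2 differences of succinate from no carbon, which use the same no-carbon libraries, were -0.80 and -1.44 (limma adjusted p = 0.439 and 0.0996). Tested directly, cellobiose minus succinate gave 7.65 ± 0.80 for RTO4_9137 and 8.17 ± 0.69 for RTO4_9135 on the log2 scale (SE, limma adjusted p = 1.45e-05 and 8.43e-07). This test reuses the wild type cellobiose libraries that helped choose both genes, so it is not independent of that choice. In the cbr1 deletion strain RTO4_9137 held 831, 1233 and 623 TPM on cellobiose, against 31.0, 26.9 and 18.6 TPM without carbon, a difference of 5.06 ± 0.80 on the log2 scale (SE, adjusted p = 1.12e-04 in limma). RTO4_9135 held 415, 704 and 268 TPM there on cellobiose, against 20.2, 17.0 and 12.4 TPM without carbon, a difference of 4.64 ± 0.69 on the log2 scale (SE, adjusted p = 5.48e-05 in limma). The libraries of the deletion strain on succinate disagreed, with 215, 63.8 and 4.98 TPM for RTO4_9137 and 90.2, 27.4 and 2.84 TPM for RTO4_9135. The same replicate was highest and the same lowest for both genes.

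Gene RTO4_12923 fell most. It held 3.74, 4.22 and 2.13 TPM on cellobiose, against 4528, 3801 and 1665 TPM without carbon. Its mean was 3.37 ± 1.1 TPM on cellobiose and 3331 ± 1488 TPM without carbon (SD, n = 3 each), and the log2 difference was -9.49 ± 1.01 (SE, adjusted p = 5.3e-07 in limma). Without carbon it ranked 39 among the genes tested, and on cellobiose 6848. Gene RTO4_13032 held 1.33, 3.45 and 4.27 TPM on cellobiose, against 1066, 2721 and 6119 TPM without carbon. Its mean was 3.02 ± 1.52 TPM on cellobiose and 3302 ± 2576 TPM without carbon (SD, n = 3 each), and the log2 difference was -9.43 ± 1.03 (SE, adjusted p = 6.98e-07 in limma). The starved libraries ordered these genes in opposite ways, since replicate 3 was the lowest for RTO4_12923 and the highest for RTO4_13032.

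Both lowered genes were intermediate on succinate in the wild type. RTO4_12923 held 98.1, 279 and 961 TPM there and RTO4_13032 held 27.9, 139 and 1585 TPM, wide ranges that lay above all cellobiose libraries. The range of RTO4_12923 lay below all starved libraries, while that of RTO4_13032 overlapped with them. Succinate minus no carbon, which uses the same no-carbon libraries, gave -3.36 ± 1.01 and -3.81 ± 1.03 (SE, limma adjusted p = 0.0132 and 0.00668). Both genes were called lower. Cellobiose minus succinate gave -6.13 ± 1.01 for RTO4_12923 and -5.61 ± 1.03 for RTO4_13032 on the log2 scale (SE, limma adjusted p = 0.00115 and 0.00281). Here too the cellobiose libraries helped choose both genes, so the test is not independent of that choice. In the cbr1 deletion strain the succinate libraries also spread widely. RTO4_12923 held 15.2, 1644 and 202 TPM on succinate there, so its replicate 1 lay below all cellobiose libraries of that strain. RTO4_13032 held 6.07, 89.7 and 79.5 TPM on succinate there, which overlapped with cellobiose. Succinate minus no carbon gave -4.71 ± 1.01 and -5.24 ± 1.03 in that strain (SE, limma adjusted p = 0.00123 and 0.000563). Both genes were called lower. In the same strain RTO4_12923 held 54.2, 86.2 and 39.6 TPM on cellobiose, against 5887, 3461 and 4722 TPM without carbon, a difference of -6.30 ± 1.01 on the log2 scale (SE, adjusted p = 1.23e-04 in limma). RTO4_13032 held 5.72, 8.94 and 5.52 TPM there on cellobiose, against 762, 1449 and 2545 TPM without carbon, a difference of -7.54 ± 1.03 on the log2 scale (SE, adjusted p = 2.5e-05 in limma). The interaction test of a difference between the strains' responses, the deletion strain minus the wild type, called 3.33% of all genes tested, with 2.12% more positive and 1.21% more negative. That is 264 genes, a count that ran from 54 without replicate 1 of the deletion strain on cellobiose to 856 without replicate 3 of the starved wild type. It called none of the 4 genes. These differences were -1.80 ± 1.14 for RTO4_9137, -2.10 ± 0.97 for RTO4_9135, 3.18 ± 1.43 for RTO4_12923 and 1.88 ± 1.46 for RTO4_13032 (SE, limma adjusted p = 0.384, 0.226, 0.214 and 0.493). The size of these errors leaves room for large differences. The wild type libraries chose the 4 genes and enter this test, so the signs of the differences are no independent result. All 4 genes were called in the wild type under every alternative run on single genes, the omission of each of the 6 libraries included.

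**Figure D4:**
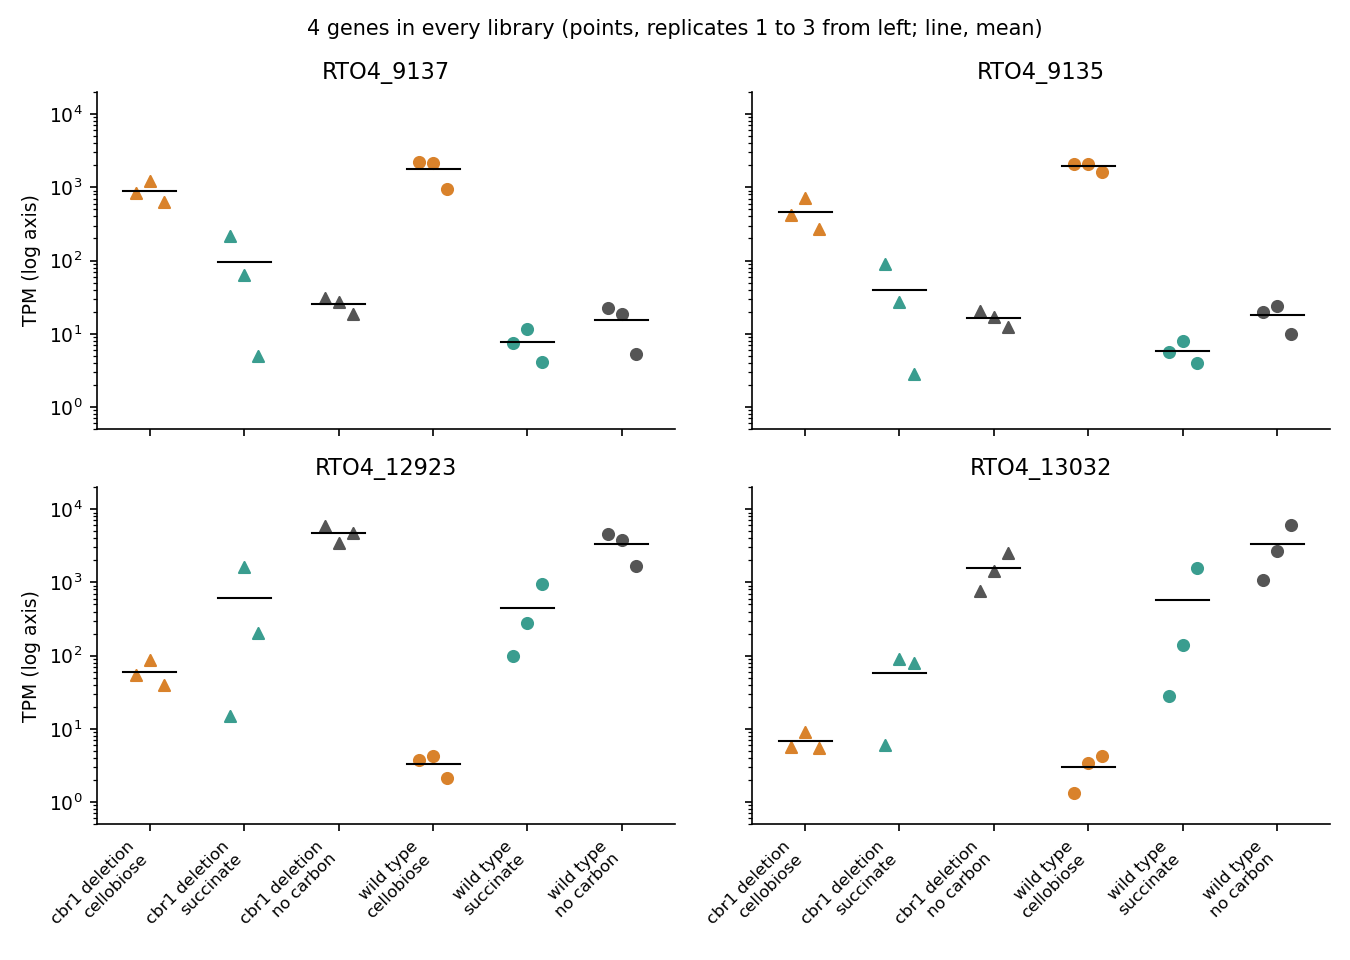
TPM on a log axis of the 2 genes that rose most (top) and the 2 that fell most (bottom) on cellobiose in the wild type, in all 18 libraries by strain and medium (triangles for the cbr1 deletion strain, circles for the wild type; replicates 1 to 3 from the left; lines, means). In the wild type the raised genes lie between 945 and 2249 TPM on cellobiose and at most at 24.1 TPM without carbon, and the lowered genes lie at most at 4.27 TPM on cellobiose and at least at 1066 TPM without carbon.

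The called genes were then read as sets in the deletion strain. Its 9 libraries do not enter the wild type difference itself, but they entered the filter and the estimate of the spread behind the calls. Of the 697 raised genes, 211 (30.3%) were called higher on cellobiose than without carbon in that strain and 4 lower, beside 4.62% higher over all genes tested. Of the 1748 lowered genes, 761 (43.5%) were called lower and 1 higher, beside 12.6% lower over all. The larger wild type responses were read apart. Of the 98 raised by a log2 of at least 2, 68 (69.4%) were called higher. Of the 685 lowered by as much, 461 (67.3%) were called lower, and of the 126 lowered by at least 4, 110 (87.3%) were, with all 126 negative. In an alternative chosen after seeing the data, the sets came from a filter and fit of the 6 wild type libraries alone and the response from a fit of the 9 deletion libraries alone. Then 202 of 630 raised genes (32.1%) were called higher on cellobiose in the deletion strain and 798 of 1614 lowered genes (49.4%) lower, beside 4.84% and 13.7% over the 7917 genes tested.

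The same sets moved on succinate in the deletion strain. Of the 697 raised genes, 360 (51.6%) were called higher on succinate and 2 lower, beside 6.79% higher over all genes tested. Of the 1748 lowered genes, 1314 (75.2%) were called lower and 0 higher, beside 21.9% lower over all. On succinate the median difference was 1.06 for the raised and -1.47 for the lowered genes, beside -0.39 over all genes tested. On cellobiose it was 0.46 for the raised and -0.97 for the lowered genes in the deletion strain, beside -0.21 over all. The deletion strain's comparisons on cellobiose and succinate share its no-carbon libraries. After median-ratio scaling, which also changed the sets in the wild type to 978 raised and 1513 lowered genes, 557 and 831 were called the same way on succinate. After quantile normalization the sets were 1124 and 1085 genes and the counts 641 and 686 on succinate and 388 and 500 on cellobiose. The call lists of the strain on both carbon sources held 177 of the 697 raised genes (25.4%) and 647 of the 1748 lowered genes (37%), beside 2.76% of all genes tested called higher and 8.99% called lower on both. Called the same way on neither were 303 raised (43.5%) and 320 lowered genes (18.3%). In the wild type on succinate 171 raised genes (24.5%) were called higher and 1424 lowered genes (81.5%) lower. Over all genes tested such calls made up 2.95% and 27.6% there. That wild type comparison uses the no-carbon libraries that helped choose the sets, so it is not independent of them.

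**Figure D5:**
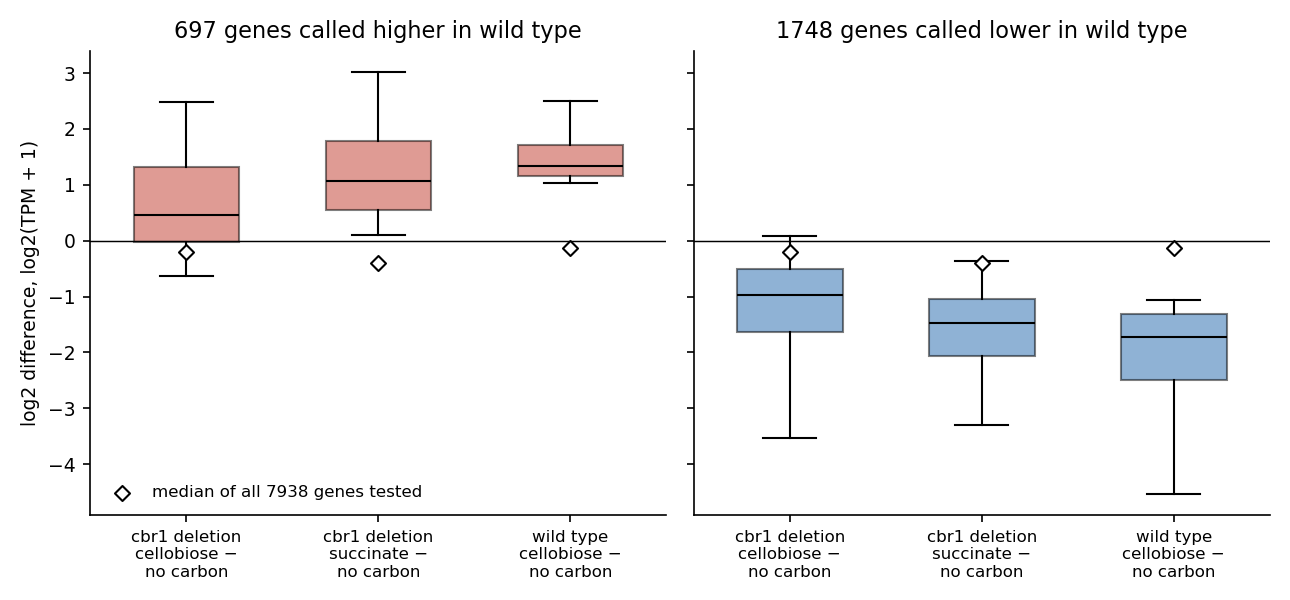
Log2 differences of the 697 raised (left) and 1748 lowered (right) genes in the cbr1 deletion strain on cellobiose and on succinate, each against no carbon, and in the wild type comparison that chose them (boxes, quartiles with the median; whiskers, 5th to 95th percentile of genes; diamonds, median of all 7938 genes tested). Median differences in the deletion strain are 0.46 and 1.06 for raised and -0.97 and -1.47 for lowered genes, on the same side as in the wild type.

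The libraries differed in how well replicates matched. Across the genes tested, which are not independent, Pearson's r of log2(TPM + 1) was 0.995, 0.945 and 0.956 between the cellobiose replicates and 0.98, 0.92 and 0.958 between the starved ones. It ran from 0.761 to 0.816 between the media. Replicate 3 was the least like its group in both media. The median SD between replicates was 0.30 on cellobiose and 0.52 without carbon on the log2 scale. In the other groups of the series it ran from 0.20 to 0.40. The fit over 18 libraries uses 1 spread per gene for all groups, which may understate that of the starved wild type. A fit of the 6 wild type libraries alone called 2242 genes, 629 higher and 1613 lower. The starved replicate 3 had the lowest value of the 3 for 84.9% of all genes tested, and its median TPM was 18.9, against 36.9 and 33.1 in replicates 1 and 2. Among the 126 genes that fell by at least 4, it was the highest for 55.6% and the lowest for 39.7%. The starved libraries, replicate 3 included, helped choose these genes, so this order only describes them. The 100 most abundant genes took 43.8%, 43.2% and 42.2% of TPM on cellobiose and 32.9%, 33.9% and 47.9% without carbon. The mean of 43.1% on cellobiose and of 38.2% without carbon gave an exact two-sided permutation p of 0.4 (n = 3 each), where 0.1 is the smallest p this design allows. The part of replicate 3 in the calls was measured by leaving it out. Without the starved replicate 3, 488 genes were called higher and 2304 lower, and 450 of the 697 raised and 1705 of the 1748 lowered genes were called the same way. Without replicate 3 of both media, an alternative chosen after seeing the data, 419 and 1664 of these genes were.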

How the data were processed

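Messenger RNA was measured by sequencing of poly-A enriched RNA, per the labels' protocols. The authors deposited TPM (gene abundances scaled by length and to a fixed total) for 8484 genes, with 1 column for each of 18 libraries, and each column summed to 1e+06. Salmon 1.10.0, a program that estimates transcript abundance, is named in the submitters' processing notes. For the genome build and annotation the sources used here give nothing. Read numbers cannot be had from TPM, so library depth is unknown and intervals for counting error are left out. Library names tied each column to its sample. The RefSeq table for strain NP11 lists 8171 genes and held 0 of the identifiers, so genes carry identifiers only, no gene list by function was counted and no sequence is printed.

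The test ran on log2(TPM + 1) for the 7938 genes that averaged 1 TPM or more over 18 libraries, with limma 3.58.1 in R 4.3.3, with 1 mean per group over 6 groups, 12 residual degrees of freedom and a spread that could follow the mean level. Adjusted p-values are limma's, by Benjamini-Hochberg over all genes tested in a comparison. The 4 genes named are the 2 largest rises and the 2 largest falls among called genes that averaged 10 TPM or more in either medium and no overlap between libraries. The comparison, the rule and the lists were chosen with earlier results of these data known. Nothing in the labels says that a replicate number marks a shared culture. Deviations of same-numbered libraries from their group means were compared between wild type cellobiose and no carbon. Their r across genes was -0.195, 0.204 and -0.105 for replicates 1, 2 and 3. The numbers were not treated as pairs, a choice that this check, made in these groups only, cannot settle. Replicate 3 had the lowest median TPM in each of the 6 groups, but only by 25.66 against 25.67 TPM in the wild type on cellobiose. Whether a replicate number marks a shared batch was not tested. Alternatives were other pseudocounts, filters and scalings, a fit of 6 libraries, array weights, limma's treat test, the replicate number as a block and leaving out libraries.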

Additional observations from a re-analysis of the deposited data

Results flagged for a closer look

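The response to cellobiose differed between the strains for 264 of 7938 genes (3.33%) by limma's interaction term, with 168 more positive in the cbr1 deletion strain than in the wild type and 96 more negative. Among the genes raised in the wild type 68 of 697 were called, all more negative in the deletion strain, and among the lowered genes 151 of 1748, all more positive. The wild type libraries chose these sets and enter the interaction, so the direction within the sets is no independent result. The count depended on single libraries. It was 54, 134 and 145 without deletion replicates 1, 2 and 3 on cellobiose, and 129, 107 and 147 without the same replicates of no carbon. In the wild type, omission of cellobiose replicates 1, 2 and 3 gave 105, 115 and 184. Omission of no-carbon replicates 1, 2 and 3 gave 235, 74 and 856.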

How the results depend on the processing

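The direction of all 4 named genes and their calls held under every setting run on them, with log2 differences between 6.27 and 7.26 for RTO4_9137, 6.39 and 6.98 for RTO4_9135, -9.93 and -9.20 for RTO4_12923 and -10.1 and -8.81 for RTO4_13032 when a library was left out. No gene called in the wild type was called in the opposite direction in any of 24 settings. Called the same way in all 24 were 89 of the 697 raised and 540 of the 1748 lowered genes, the treat test being the strictest. Treat called 717 genes (90 higher, 627 lower), of which 310 lower in the lowest abundance class. Under treat the raised and lowered genes called the same way in the deletion strain numbered 40 and 178 on cellobiose and 56 and 272 on succinate, and 2 genes differed between strains. Quantile normalization gave 1124 higher and 1085 lower genes, 378 genes higher by at least 1 in every library pair, 301 lowered genes in the lowest class, 388 and 500 shared calls on cellobiose, 641 and 686 on succinate and 491 genes that differed between strains. Median-ratio scaling gave 557, 831 and 886 for the last 3 of these. A pseudocount of 5 TPM gave 396 lowered genes in the lowest class. Thresholds of 5 and 0.5 TPM gave 0 genes on with cellobiose and off without carbon. Same-numbered libraries were not treated as pairs, and whether a replicate number marks a shared batch was not tested. The replicate block in the fit of 6 libraries called 1689 genes, with 417 higher and 557 lowered in the lowest class, and over all 18 libraries it called 2479 genes, with 579 that differed between strains. Array weights, whose estimate did not converge, called 2717 genes, with 2033 that differed between strains.

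Leaving out 1 library gave 2160 to 2792 called genes, 488 to 932 higher and 1454 to 2304 lower. Genes past a log2 of 1 in every pair ran from 218 to 380 higher and from 789 to 1594 lower, switched-off genes from 25 to 44 and genes that differed between strains from 54 to 856. Without both replicates 3 these were 427, 1868 and 64, and 804 genes differed between strains. The fits of 6 libraries give no value for the deletion strain. The cause of these shifts was not tested. Fewer pairs and fewer libraries make the pair and threshold counts easier to meet, whichever library is left out. Switched-off genes numbered 26, 25 and 37 without cellobiose replicates 1, 2 and 3, and 29, 30 and 44 without those of no carbon. Depth is unknown, so no limit by read number can be given for genes near 0 TPM.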
